A study of Mus musculus with 8 samples.

Results

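Adipokines are proteins that fat cells release into the blood, and batokines are those released by brown adipose tissue (BAT). The 10 genes described here, Lep, Adipoq, Retn, Rbp4, Nrg4, Bmp8b, Nampt, Angptl8, Metrnl and Nnat, were taken by name from the 31053 genes of a bulk RNA-seq count table. In BAT of mice without adipose triglyceride lipase (ATGL) in thermogenic adipocytes, Lep and Metrnl were higher than in wild-type (WT) mice. Angptl8, Rbp4, Adipoq and Nampt were lower. Retn, Nrg4 and Nnat did not pass the test, and Bmp8b had too few counts to be tested.

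BAT of 4 WT and 4 Ucp1Δ/Δ mice was profiled, all of the strain given as C57BL6/J and all male. The Ucp1Δ/Δ mice, labelled ATGLKO, carry Pnpla2 fl/fl, the floxed gene for ATGL, and a Cre recombinase driven by Ucp1, so the deletion is limited to cells that express Ucp1. Whether the WT mice carried a floxed allele or Cre is not given in the sources used here. The labels give an age of 10 weeks, whereas the legend of the study gives a younger age. The methods state a fast before tissue collection in a passage on other mice of the study. Whether it also covers the mice here is not clear from that text.

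As cell type the labels give the stromal vascular fraction, the cells left when adipocytes are removed. In these libraries all 15 mature adipocyte markers passed the filter on low counts, with a summed level between 19570 and 24800 CPM (counts scaled by library size) in WT mice and between 13550 and 17510 CPM in Ucp1Δ/Δ mice. Pnpla2, the targeted gene, had 2837, 2701, 2961 and 3152 CPM in WT mice 1 to 4 and 513.7, 447.8, 402.8 and 530.5 CPM in Ucp1Δ/Δ mice 1 to 4, a log2 fold change (log2FC) of −2.62 (SE 0.17, adjusted p = 1.972e-07). Libraries held between 2017697 and 3115956 counts, of which between 38.4% and 45.6% came from mitochondrially encoded genes. At this depth 3 counts amounted to between 0.933 and 1.53 CPM, a floor that covers counting error only. Skeletal muscle markers differed widely between mice, from 32.39 to 2030 CPM in WT and from 98.62 to 2838 CPM in Ucp1Δ/Δ mice, and WT mouse 1 and Ucp1Δ/Δ mouse 2 held the most.

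Leptin, the product of Lep, reports the fat store to the hypothalamus, and in rodents its gene is far more active in white than in brown fat. Adiponectin (Adipoq) and resistin (Retn) are hormones of differentiated adipocytes. Retinol binding protein 4 (Rbp4) carries vitamin A in plasma. Nampt is the rate-limiting enzyme of NAD salvage and also circulates outside cells. Angptl8 acts on lipoprotein lipase, the enzyme that releases fatty acids from blood triglyceride, and its gene is known to respond to feeding and insulin. Nrg4, Bmp8b and Metrnl are batokines: an ErbB ligand, a bone morphogenetic protein (BMP) and the meteorin-like protein. Neuronatin (Nnat) differs from the other members in being a small protein of the endoplasmic reticulum membrane, and its gene is imprinted.

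In the mm10 build with GENCODE annotation, all members are protein-coding genes. Lep spans chr6:29060220-29073877 on the plus strand, Metrnl chr11:121701544-121716306 (plus), and Angptl8 chr9:21835510-21837347 (plus). Adipoq spans chr16:23146536-23158028 (plus), Rbp4 chr19:38116629-38125281 (minus) and Nampt chr12:32819545-32853349 (plus). Retn spans chr8:3655770-3660110 (plus), Nrg4 chr9:55220222-55326844 (minus), Bmp8b chr4:123105165-123132099 (plus) and Nnat chr2:157560078-157562522 (plus). Angptl8 lies inside Dock6 and Nnat inside Blcap, each on the opposite strand and with 0 shared exonic bases. Exons of Nrg4 share 368 bases with Fbxo22 on the other strand. Gdap10 lies in Nampt on its own strand with 0 shared exonic bases. Whether the counting used strand is not given in the sources used here. Per mouse, Fbxo22 had 9 to 26 counts, Gdap10 13 to 64, Dock6 14 to 37 and Blcap 87 to 218. The Dock6 counts overlap those of Angptl8 in Ucp1Δ/Δ mice, and the Blcap counts those of Nnat.

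Promoters are shown for the member that rose most, the member that fell most and the most counted member, which include a gene that rose and genes that fell. All 10 members had an entry among the RefSeq promoters of GRCm38.p6. The 100 bases before each start site read, 5′ to 3′ on the gene's strand, as follows.
Lep, chr6:29060121-29060220, plus strand: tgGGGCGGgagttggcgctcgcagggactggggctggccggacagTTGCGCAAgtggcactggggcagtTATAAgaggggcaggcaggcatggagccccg
Angptl8, chr9:21835410-21835509, plus strand: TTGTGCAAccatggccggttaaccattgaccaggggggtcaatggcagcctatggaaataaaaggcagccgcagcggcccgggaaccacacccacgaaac
Adipoq, chr16:23146436-23146535, plus strand: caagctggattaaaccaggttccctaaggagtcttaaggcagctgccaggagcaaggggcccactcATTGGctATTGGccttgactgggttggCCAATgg

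Capitals mark matches to a TATA box (TATAA, on the gene's strand), the C/EBP motif (TTGCNNAA, where C/EBP factors of adipocyte differentiation bind), a CCAAT box (CCAAT) and a GC box (GGGCGG), the last 3 on either strand. Lep held a TATA box that began 31 bases before the start, a C/EBP match at 55 and a GC box at 98. Angptl8 held a C/EBP match at 100, and Adipoq 3 CCAAT boxes at 34, 27 and 7. In the 250 bases before 32851 mouse promoters, 16% held TATAA, 9.56% the C/EBP letters, 33.8% CCAAT and 32.7% GGGCGG. A nuclear receptor half-site (AGGTCA, 14% of promoters) and an E-box (CACGTG, 6.02%) were searched too and were not in these 3 windows. A match describes letters, not binding.

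Of the 10 members, 9 passed the filter on low counts. Between genotypes 6 of them passed an adjusted p of 0.05, beside 21% of all 8930 genes tested. The 2 higher members stand beside a background of 13.3%, and the 4 lower members beside 7.63%. The same 6 members had levels that did not overlap between genotypes, which held for 23.7% of all tested genes. The median log2FC of the tested members was −0.69 and that of all tested genes −0.0087. Without the 2 mice richest in skeletal muscle markers, the counts were 2 higher and 3 lower, since Nampt no longer passed (log2FC −0.59, adjusted p = 0.0902, in a range from 0.000373 to 0.562 over all alternatives for this gene).

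**Figure D1:**
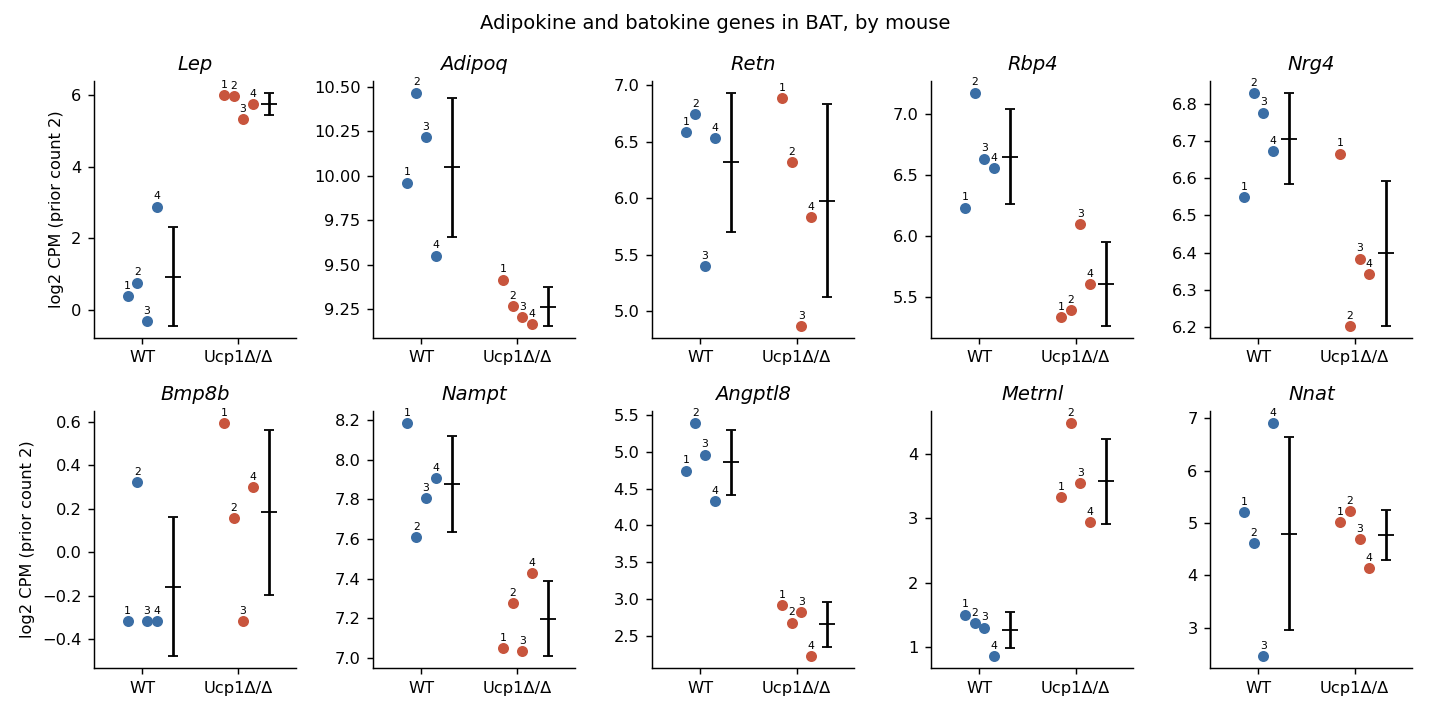
Level of each of the 10 members in each mouse, as log2 CPM with a prior count of 2, with 1 panel per gene and its own vertical scale that does not start at 0. Points are mice, numbered by replicate, and the bar is the mean ± SD of 4 mice; Lep and Metrnl lie higher in every Ucp1Δ/Δ mouse, Angptl8, Rbp4, Adipoq and Nampt lower, and the other 4 genes overlap.

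Lep changed most among the members. It had 1, 2, 0 and 13 counts in WT mice 1 to 4 and 177, 198, 94 and 124 counts in Ucp1Δ/Δ mice 1 to 4. In CPM these were 0.51, 0.896, 0 and 6.59 in WT mice and 62.6, 61.6, 39.3 and 53.2 in Ucp1Δ/Δ mice. In 3 WT mice Lep therefore lay below the floor of 3 counts, while WT mouse 4 stood above the others and every Ucp1Δ/Δ mouse above WT mouse 4.

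The mean rose from 2 ± 3.08 to 54.2 ± 10.8 CPM (SD, n = 4), a log2FC of 4.89 (SE 0.52, 95% interval 3.78 to 5.99, adjusted p = 8.506e-06), the 14th highest of all tested genes. The pooled counts, 16 against 593, gave a ratio of 31.6 with a 95% counting interval from 19.3 to 55.6. WT mouse 4 held 13 of the 16 WT counts. Without it, 3 counts stood against 593, a ratio of 132 (interval 45 to 641.9), and the log2FC was 6.85.

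WT mouse 4 stood apart in other genes as well. It had the lowest summed level of brown adipocyte markers among WT mice, 6440 against 10090 to 16050 CPM, and the highest of white adipocyte markers, 139.8 against 58.1 to 93.8 CPM. Its Adipoq was the lowest and its Nnat the highest of the WT mice. What part the makeup of this sample had in its Lep count was not tested.

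Of the 12 white adipocyte markers, 4 had enough counts for the test and 1, Npr3, rose. Npr3, the clearance receptor for natriuretic peptides, went from 21.2 ± 6.59 to 190.7 ± 45.2 CPM (log2FC 3.17, SE 0.25, adjusted p = 6.133e-07). Hoxc10, Tcf21 and Wt1, which mark white depots, had 0 counts in all 8 mice. Summed over the list, white markers ran from 58.1 to 139.8 CPM in WT and from 236.3 to 309.9 CPM in Ucp1Δ/Δ mice. Npr3 made this separation: without it the sums ran from 38.1 to 109.9 and from 59.8 to 113.3 CPM and overlapped. Their part in the Lep result was not tested. Of the 12 brown adipocyte markers, 2 rose and 2 fell, and Ucp1 itself went from 2719 ± 1281 to 2152 ± 597.9 CPM (log2FC −0.34, SE 0.30, adjusted p = 0.481). Cidea (log2FC −1.16, adjusted p = 0.00211) and Elovl3 (−1.96, adjusted p = 0.00803) were the 2 that fell. Dio2 was among the 2 that rose (1.45, adjusted p = 0.0231).

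Adipoq fell. Its levels were 996.4, 1416, 1188 and 749.2 CPM in WT mice 1 to 4 and 682.1, 616.1, 589.2 and 573.9 CPM in Ucp1Δ/Δ mice 1 to 4. All Ucp1Δ/Δ mice lay close together below the lowest WT mouse. The mean fell to 56.6% of WT, from 1087 ± 283.2 to 615.3 ± 47.8 CPM (log2FC −0.82, SE 0.19, 95% interval −1.23 to −0.41, adjusted p = 0.00606). In Ucp1Δ/Δ mice Adipoq varied little for a gene of this tissue, with an SD of 0.11 in log2 CPM, and 7.45% of tested genes had a smaller one.

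Since Lep and Adipoq are the adipocyte hormones most often read together, their ratio was taken within each library, where it does not depend on scaling. The log2 ratio of Lep to Adipoq counts was −10.35, −10.30, −12.80 and −6.78 in WT mice and −3.44, −3.32, −3.90 and −3.43 in Ucp1Δ/Δ mice. The Ucp1Δ/Δ mice thus held 10 to 15 Adipoq counts for each Lep count and lay close together, while the WT mice lay below them. The WT ratios rest on 0 to 13 Lep counts, and that of WT mouse 3 is set by the 0.5 added to its 0 counts. The means were −10.06 ± 2.48 and −3.52 ± 0.26 (SD, n = 4), a difference of 6.53 (p = 0.0286 by a two-sided exact permutation test over mice, the smallest that 4 against 4 allow). Lep was higher and Adipoq lower without overlap, so the ratio had to separate and this p adds nothing to those results. Without WT mouse 3 the difference was 5.62 and without WT mouse 4 it was 7.63.

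**Figure D2:**
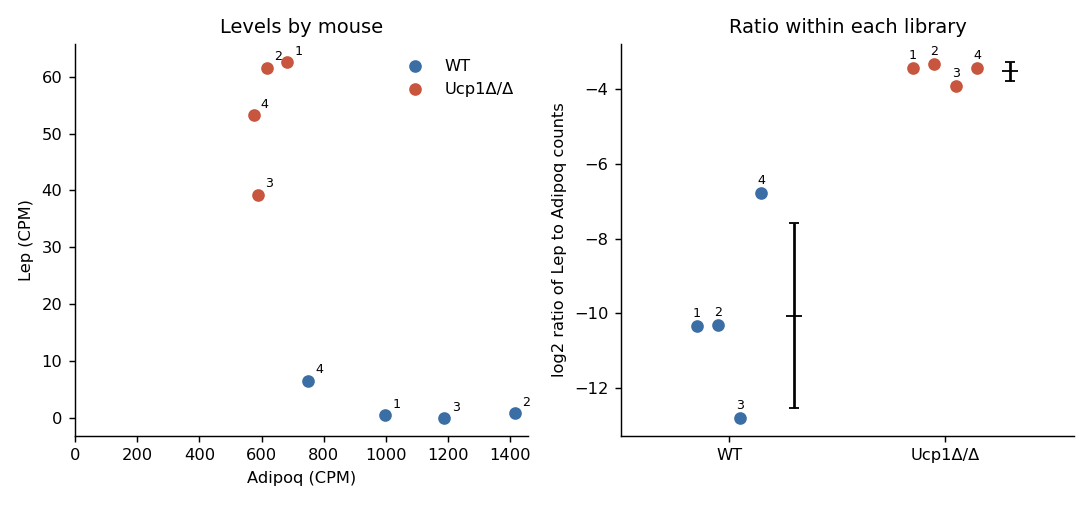
Left, Lep against Adipoq in CPM for each mouse, and right, the log2 ratio of Lep to Adipoq counts with 0.5 added to each count. Points are mice, numbered by replicate, and bars are the mean ± SD of 4 mice; Ucp1Δ/Δ mice sit at low Adipoq and high Lep, and WT mouse 4 lies nearest to them.

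Retn did not differ beyond the spread between mice. Its levels were 95.3, 106.6, 41.4 and 91.7 CPM in WT mice and 117.5, 79, 28.4 and 56.2 CPM in Ucp1Δ/Δ mice, so the genotypes overlapped over most of their range. The log2FC was −0.24 (95% interval −0.98 to 0.50, adjusted p = 0.680). Retn was the member whose level varied most between Ucp1Δ/Δ mice, with an SD of 0.855 in log2 CPM, above 98.9% of tested genes.

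Rbp4 fell from 74.5, 143.4, 98.5 and 93.2 CPM in WT mice to 39.6, 41.4, 67.7 and 48.1 CPM in Ucp1Δ/Δ mice. WT mouse 1 and Ucp1Δ/Δ mouse 3 came closest, and the genotypes did not overlap. The means were 102.4 ± 29.2 and 49.2 ± 12.9 CPM (log2FC −1.06, SE 0.23, 95% interval −1.54 to −0.58, adjusted p = 0.00308).

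Angptl8 showed the largest decrease among the members. It had 26, 41.2, 30.4 and 19.2 CPM in WT mice and 6.72, 5.6, 6.27 and 3.86 CPM in Ucp1Δ/Δ mice, which rest on 38 to 92 counts per WT mouse and 9 to 19 counts per Ucp1Δ/Δ mouse. The lowest WT mouse, again mouse 4, was well above the highest Ucp1Δ/Δ mouse. The means were 29.2 ± 9.22 and 5.61 ± 1.25 CPM, 5.16-fold lower in Ucp1Δ/Δ mice (log2FC −2.37, SE 0.27, 95% interval −2.95 to −1.78, adjusted p = 2.001e-05).

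Nampt had 290.6, 194.4, 223.1 and 239.6 CPM in WT mice and 131.6, 154, 130.4 and 171.3 CPM in Ucp1Δ/Δ mice. WT mouse 2 and Ucp1Δ/Δ mouse 4 came closest, and the genotypes did not overlap. The mean fell from 236.9 ± 40.4 to 146.8 ± 19.6 CPM (log2FC −0.69, SE 0.17, 95% interval −1.06 to −0.32, adjusted p = 0.0103).

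Among the batokines, Metrnl rose from a low level. It had 4, 4, 5 and 2 counts in WT mice and 26, 69, 26 and 16 counts in Ucp1Δ/Δ mice, or 2.04, 1.79, 1.67 and 1.01 CPM against 9.2, 21.5, 10.9 and 6.87 CPM. All Ucp1Δ/Δ mice exceeded all WT mice, and mouse 2 stood above the other three. The means were 1.63 ± 0.44 and 12.1 ± 6.46 CPM (log2FC 2.87, SE 0.44, 95% interval 1.94 to 3.81, adjusted p = 0.000229). The pooled counts, 15 against 137, gave a ratio of 7.78 with a counting interval from 4.55 to 14.3.

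Macrophages are also known to make Metrnl. Of 11 macrophage markers tested 10 rose, and their summed level ran from 109.5 to 159.5 CPM in WT and from 989.1 to 1619 CPM in Ucp1Δ/Δ mice. Within the Ucp1Δ/Δ group, mouse 2 was the highest for both Metrnl and the macrophage sum. Mouse 3 had the lowest macrophage sum and 26 Metrnl counts, the same number as mouse 1. Among WT mice the lowest Metrnl was in mouse 4 and the lowest macrophage sum in mouse 3. These WT levels of Metrnl rest on 2 to 5 counts, too few to rank the mice. Of 10 fibroblast and progenitor markers 9 rose, from 379.3 to 501 CPM in WT to 1072 to 1877 CPM in Ucp1Δ/Δ mice, again with mouse 2 highest and mouse 3 lowest. The part of these cells in the Metrnl result was not tested.

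Nrg4 was even between mice. Its levels were 92.8, 112.9, 108.9 and 101.3 CPM in WT mice and 100.8, 72.8, 82.7 and 80.3 CPM in Ucp1Δ/Δ mice, where mouse 1 reached into the WT range. The means, 104 ± 8.86 and 84.2 ± 11.9 CPM, did not differ past the threshold (log2FC −0.31, SE 0.16, 95% interval −0.66 to 0.04, adjusted p = 0.216).

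Bmp8b had 0, 1, 0 and 0 counts in WT mice and 2, 1, 0 and 1 counts in Ucp1Δ/Δ mice, and was removed by the filter. A difference was not detectable at this depth (exact permutation test, p = 0.371), and 4 counts against 1 allow any ratio from 0.337 to 167.7.

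Nnat varied most between WT mice, with 36.2, 23.7, 4.67 and 119.6 CPM in mice 1 to 4, against 31.5, 36.7, 25.1 and 16.7 CPM in Ucp1Δ/Δ mice. WT mice 3 and 4 lay outside the Ucp1Δ/Δ range on opposite sides. Its SD in WT mice, 1.84 in log2 CPM, was above that of 99.7% of tested genes. The log2FC was −0.70 (SE 0.58, 95% interval −1.94 to 0.53, adjusted p = 0.440), and turned to 0.40 without WT mouse 4. Blcap, the gene around Nnat, went from 50.6 ± 5.11 to 73.2 ± 10.5 CPM (log2FC 0.53, SE 0.17, adjusted p = 0.0338). It was named after the values were seen, and is also among the adipose expansion genes below that rose.

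**Figure D3:**
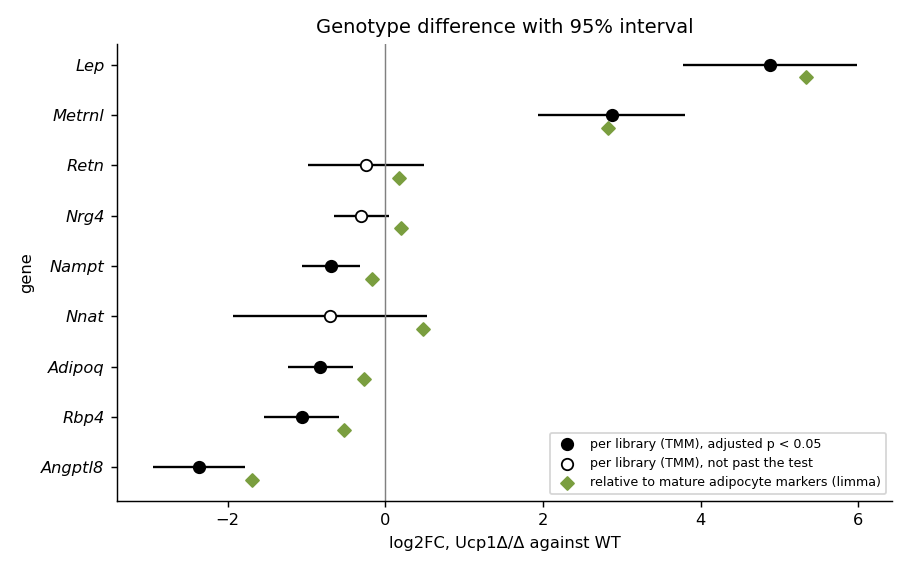
Difference between genotypes for the 9 tested members, as log2FC of Ucp1Δ/Δ against WT, with circles for the per-library scale, bars for 95% intervals and diamonds for the difference relative to mature adipocyte markers from limma on log2 CPM, drawn without intervals. The circles are from edgeR. Filled circles passed an adjusted p of 0.05; Lep, Metrnl and Angptl8 lie far from 0 on both scales, and the diamonds of the other 6 genes lie between −0.52 and 0.48.

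In bulk tissue, fewer adipocytes, less RNA per adipocyte and lower activity of the marker genes themselves cannot be told apart. The level of mature adipocyte markers differed between genotypes. The mean log2 CPM over the 15 mature adipocyte markers was 9.35, 9.65, 9.49 and 9.16 in WT mice and 9.10, 8.72, 8.97 and 8.82 in Ucp1Δ/Δ mice. It fell by 0.51 on the log2 scale (two-sided exact permutation test, p = 0.0286), and 7 of the 15 markers passed the test as lower and 0 as higher. The members were therefore also given relative to these markers of the same mouse, a scale on which the median of all tested genes moved to 0.52. It raises the limma log2FC of every gene by the same 0.51, so a gene higher per library had to stay above 0. This fit used limma on log2 CPM with a prior count of 2 in place of edgeR, and the same limma fit per library, added after seeing the data, gave 4.83 for Lep, 2.31 for Metrnl and −2.20 for Angptl8, smaller sizes than edgeR's for these low genes. It also gave −1.04 for Rbp4, −0.79 for Adipoq and −0.68 for Nampt, and called the same number of members, 2 higher and 4 lower.

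On that scale Lep was higher by 5.34 (adjusted p = 3.37e-05), Metrnl higher by 2.82 (adjusted p = 0.000157), and Angptl8 had a log2FC of −1.69 (adjusted p = 0.000179). Rbp4 stood at −0.52 (adjusted p = 0.0747), Adipoq at −0.27 (adjusted p = 0.144) and Nampt at −0.17 (adjusted p = 0.563), none of them past the threshold. Retn at 0.17, Nrg4 at 0.20 and Nnat at 0.48 turned to the other side of 0, also short of it.

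The receptors and effectors of these factors were read from lists of named genes. The lists here and below were chosen with earlier results of these data known, so counts from them are a description. Their counts stand beside the same background over all tested genes, 13.3% higher and 7.63% lower, and a count of 1 or 2 in a short list lies near it and is no result about that list. Of 20 receptors, 10 had enough counts for the test, 2 rose and 0 fell (median log2FC 0.25). Cdh13, encoding T-cadherin, which binds adiponectin, rose from 11.5 ± 1.65 to 21.5 ± 3.86 CPM (log2FC 0.91, adjusted p = 0.00815). Its call was lost without the 2 muscle-rich mice (0.87), which left 1 receptor higher. The BMP receptor gene Acvrl1, best known from endothelium, rose from 8.82 ± 1.33 to 15.9 ± 1.63 CPM (log2FC 0.85, adjusted p = 0.0135). The leptin receptor gene Lepr and the ErbB genes Erbb2, Erbb3 and Erbb4 were not tested, with means at or below 3.05 CPM in both genotypes.

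Downstream of BMP ligands, 3 of 8 tested genes rose and 0 fell (median 0.29). They were Id3 (log2FC 1.19, adjusted p = 0.00874), a target of the pathway whose call was lost without the 2 muscle-rich mice (1.22), Smad1 (1.14, adjusted p = 0.00923), a transducer, and the inhibitor Smad7 (1.46, adjusted p = 0.0155), whose call was lost without WT mouse 3 (1.39). Id1, a target as well, had a log2FC of −0.42 with an interval from −1.08 to 0.25. Smad7 had 6, 2, 5 and 4 counts in WT mice and 17, 20, 10 and 10 in Ucp1Δ/Δ mice. It passed the filter on low counts through the latter. Of 7 tested leptin signalling genes 1 rose, Ptpn1 (log2FC 0.65, adjusted p = 0.0309), whose phosphatase restrains the leptin receptor, and 0 fell (median −0.19). The Ptpn1 call was lost without WT mouse 1, 3 or 4 or Ucp1Δ/Δ mouse 2 or 3 (0.50 to 0.70), and without the 2 muscle-rich mice (0.45).

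Adipoq protein is hydroxylated, glycosylated and joined into multimers in the endoplasmic reticulum. Of the 8 genes listed for these steps, 3 rose and 0 fell (median 0.25), while Adipoq itself fell. The 3 were Colgalt1 (log2FC 0.79, adjusted p = 0.00974), P4hb (0.70, adjusted p = 0.0255) and Plod1 (0.52, adjusted p = 0.0356), which also serve collagens. Of 10 fibroblast and progenitor markers 9 rose in the same mice, and the part of these cells in the 3 results was not tested. The call was lost for P4hb without WT mouse 1, 3 or 4 or Ucp1Δ/Δ mouse 1 or 2 (0.60 to 0.71), and for Plod1 without any mouse other than WT mouse 2 (0.47 to 0.57). Without the 2 muscle-rich mice 0 of the 8 passed edgeR's test, with Colgalt1 at 0.75, P4hb at 0.54 and Plod1 at 0.53. Ero1a and Erp44, which control adiponectin release, had log2FC values of −0.24 and −0.22 and did not pass.

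Around Rbp4, none of 10 tested retinol handling genes passed edgeR's test in either direction (median 0.27). At an unadjusted p under 0.05, 3 were higher and 1 lower, DESeq2 called 1 lower, and limma voom called 2 higher. With 1 count in any mouse as the filter 3 were higher and 1 lower, with 10 counts in every mouse, total counts only or the replicate block 1 was higher, and relative to adipocyte markers 6 were higher. The most counted were Retsat, a retinol saturase, at 222.3 ± 60.6 and 153.5 ± 24.7 CPM (log2FC −0.53, adjusted p = 0.0762), and Dhrs4 at 158.8 ± 36.1 and 136.7 ± 13.2 CPM (−0.22, adjusted p = 0.445). These 2 are among the 3 tested genes of the list with a log2FC below 0, while 7 lay above 0. Around Nampt, 1 of 11 tested NAD genes rose and 1 fell (median −0.21). Nnmt, which methylates nicotinamide, the substrate of Nampt, rose from 9.44 ± 2.75 to 29.9 ± 6.84 CPM (log2FC 1.67, adjusted p = 0.000196). Naprt, which starts NAD synthesis from nicotinic acid, fell from 21.7 ± 8.4 to 11.8 ± 2.86 CPM (−0.87, adjusted p = 0.0362), a call lost without WT mouse 2 or 3 or Ucp1Δ/Δ mouse 1, 2 or 4 (−0.96 to −0.62) and without the 2 muscle-rich mice (−1.01).

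Around Angptl8, 1 of 7 tested partners rose and 0 fell (median 0.079). The riser was Gpihbp1, which carries lipoprotein lipase across the endothelium (72.3 ± 6.23 to 106.8 ± 14.1 CPM, log2FC 0.56, adjusted p = 0.0234). Lpl itself stood at −0.39 and Angptl4 at 0.44, neither past the threshold. The Gpihbp1 call was lost without WT mouse 1 or 3 or Ucp1Δ/Δ mouse 1 or 3 (log2FC 0.50 to 0.56), and without the 2 muscle-rich mice (0.62).

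Of 20 transcription factors listed as regulators of adipokine genes, all were tested, 1 rose and 2 fell (median −0.11). Esrra, a factor of mitochondrial genes, fell (25.1 ± 13.2 to 9.55 ± 2.31 CPM, log2FC −1.38, adjusted p = 0.00611), as did Ppara, a factor of fatty acid oxidation (202.7 ± 48.6 to 94.9 ± 34.2 CPM, −1.10, adjusted p = 0.00476). Cebpd, a C/EBP factor, rose from 7.3 ± 3.09 to 16.5 ± 6.77 CPM (1.21, adjusted p = 0.0172), a call lost without WT mouse 3 or Ucp1Δ/Δ mouse 1 (0.90 to 1.03). Relative to the adipocyte markers Ppara stood at −0.60 and Esrra at −0.71, no longer past the threshold, and Ppara was not called without the 2 muscle-rich mice (−0.94). Pparg (−0.33), Cebpa (−0.48) and Cebpb (0.01), the central factors of adipocyte differentiation, did not pass.

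Other adipokines were read from the same fit. Of 35 listed, 16 were tested, 11 rose and 1 fell, with a median log2FC of 1.24. Rarres2, encoding chemerin, rose from 42.4 ± 7.23 to 172.7 ± 28.1 CPM (log2FC 2.03, adjusted p = 2.654e-06). The matrix protein gene Sparc rose from 878.1 ± 110.5 to 2016 ± 212.4 CPM (log2FC 1.20, adjusted p = 8.924e-05) and the growth factor gene Igf1 from 30.2 ± 8.61 to 102.4 ± 31.1 CPM (1.78, adjusted p = 0.000135). The gene that fell was C1qtnf12, an adiponectin paralog (57.5 ± 16.2 to 34.6 ± 6.29 CPM, −0.73, adjusted p = 0.0233), a call lost without WT mouse 3 or Ucp1Δ/Δ mouse 2 or 3 (−0.74 to −0.64), and without the 2 muscle-rich mice (−0.70). This list shares Dpt and Fbn1 with the fibroblast markers, which rose, and Fabp4 with the adipocyte markers.

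Of 30 other batokines, 15 were tested, 8 rose and 1 fell (median 1.10). Gdf15, a stress cytokine, had 3 counts over the WT mice and 413 over the Ucp1Δ/Δ mice, a ratio of 117.2 (counting interval 39.8 to 570.6, adjusted p = 8.145e-06). Epdr1 had 1 and 107 counts, a ratio of 91.1 (interval 16 to 3631, adjusted p = 1.027e-05). S100b, also a marker of Schwann cells, rose from 113.1 ± 29.2 to 710.3 ± 103.8 CPM (log2FC 2.65, adjusted p = 6.473e-07), and was the only 1 of 3 tested Schwann markers to do so. Pm20d1, which makes N-acyl amino acids, fell from 9.95 ± 3.04 to 4.9 ± 1.6 CPM (−1.02, adjusted p = 0.0425), a call lost without any mouse other than WT mouse 3 and Ucp1Δ/Δ mouse 3 (−1.05 to −0.80), and without the 2 muscle-rich mice (−0.78).

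**Figure D4:**
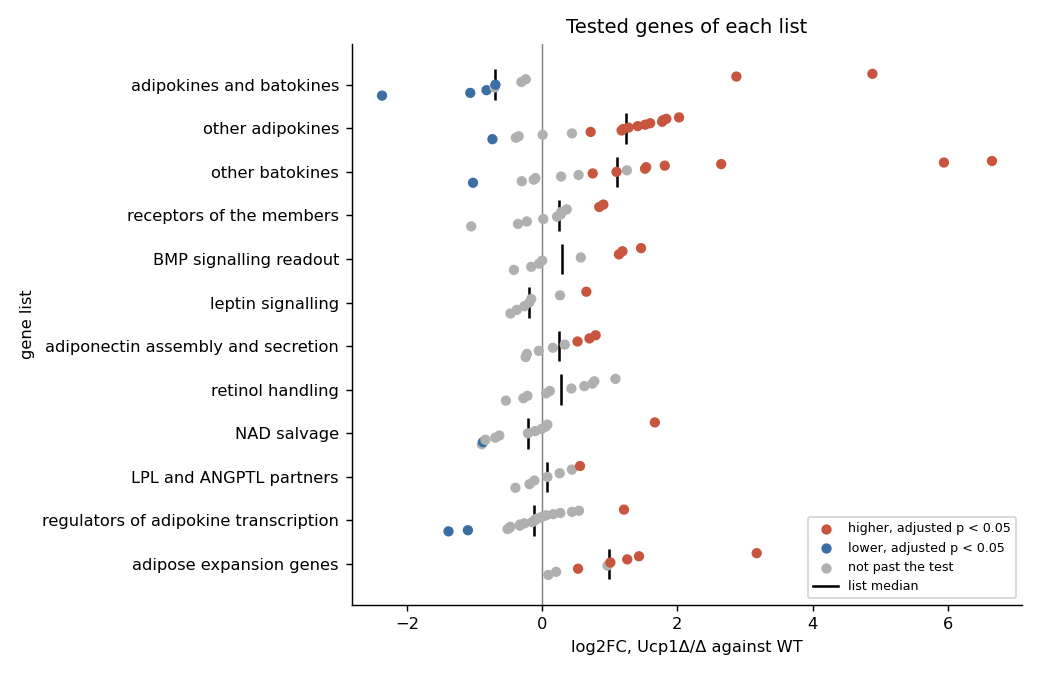
Log2FC of Ucp1Δ/Δ against WT for each tested gene of 12 lists, with 1 point per gene and a black bar at the list median; red and blue points passed an adjusted p of 0.05. The members have a median of −0.69 and hold both high and low genes, while other adipokines, other batokines and adipose expansion genes have medians of 1.24, 1.10 and 0.99.

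Leptin expression is known to go with fat cell size, and genes reported for adipose expansion were listed for this reason. This list too was chosen with earlier results of these data known. Of 14 listed, 8 were tested, 5 rose and 0 fell (median 0.99), and 3 rose without the 2 muscle-rich mice. Besides Npr3 they included Cavin2 (199.2 ± 42.5 to 476.7 ± 45.9 CPM, log2FC 1.26, adjusted p = 0.000115) and Cavin1 (636.7 ± 125.2 to 1282 ± 266.5 CPM, 1.01, adjusted p = 0.00155), which shape caveolae of the cell membrane. The caveolin genes of the list, Cav1 (0.09, adjusted p = 0.786) and Cav2 (0.21, adjusted p = 0.415), did not pass. Neither Mest, the imprinted gene most used as an expansion marker, nor Sfrp5 had enough counts for the test. The counts hold no measure of fat cell size, and its part in the Lep result was not tested.

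The genes whose log2 CPM followed each changed member most closely over the 8 mice were found by Pearson's r, which here includes the difference between genotypes. For Lep they were Ccdc34 (r = 0.992), Casp12 (0.990) and Sash1 (0.989), and for Metrnl Cd34 (0.990), Coro1c (0.983) and Rtp4 (0.983). For Angptl8 they were H2-Q10, Faf1 and Tlcd1 (each 0.989). For Adipoq they were Copz1 (0.990), Avpi1 (0.989) and Apoc1 (0.988), for Rbp4 Slc36a2 (0.985), Chchd7 (0.983) and Nol3 (0.982), and for Nampt Snx2 (0.980), Anapc1 (0.979) and Mtmr1 (0.973). The points share 8 libraries and their scaling, so r is a description.

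**Figure D5:**
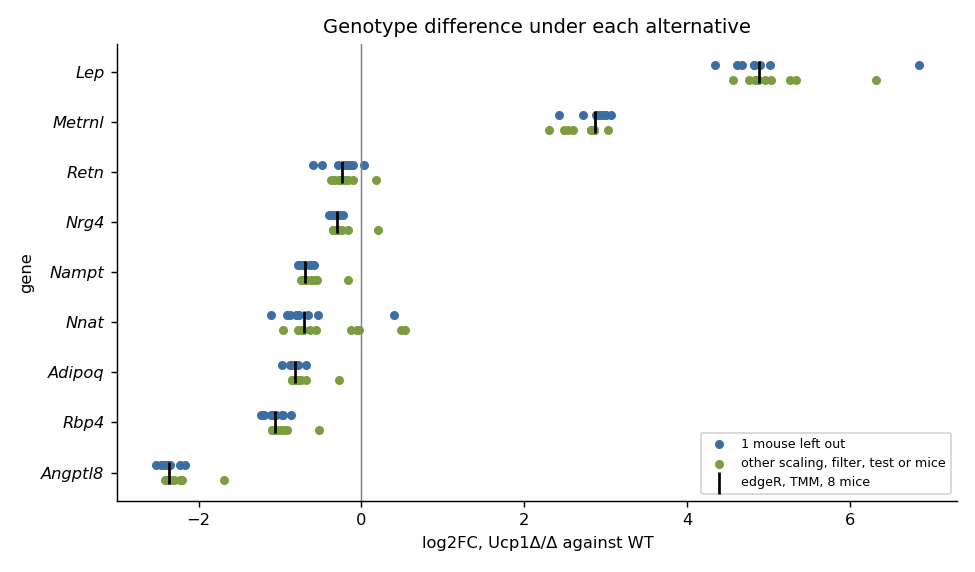
Log2FC of each tested member under every alternative run, with blue points for fits that leave out 1 mouse, green points for other scalings, filters, tests or sets of mice, and a black bar for the value reported. Lep, Metrnl, Angptl8, Rbp4, Adipoq and Nampt stay on the same side of 0 throughout, while Retn, Nrg4 and Nnat cross 0. Lep reaches 6.85 without WT mouse 4.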

How the data were processed

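Bulk RNA-seq of BAT from 4 WT and 4 Ucp1Δ/Δ mice was analysed from the deposited table of raw counts per Ensembl gene. Per the study's methods the authors used bbduk for trimming, STAR for alignment (mm10) and HTseq-counts to make the counts. The submitters' processing notes name Trimmomatic, HISAT2 and DESeq2 instead, and the annotation release and strand setting are not given in the sources used here. The deposited log2 values equal log2 of the count times 1 factor per mouse, plus 1, and served in 1 alternative. Symbols came from GENCODE annotation (30934 of 31053 identifiers).

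Counts were analysed in R 4.3.3 with edgeR 4.0.16 (filterByExpr, TMM, quasi-likelihood test on genotype, Benjamini-Hochberg adjustment over all 8930 tested genes, threshold 0.05). Alternatives used limma 3.58.1 and DESeq2 1.42.0. CPM values use TMM-scaled library sizes, log2 CPM a prior count of 2, and the Lep to Adipoq ratio a pseudocount of 0.5. CPM is not divided by gene length, so it gives no order of levels between genes. Exact permutation tests over mice were two-sided.

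The members and gene lists were chosen with earlier results of these data known. Named were all members, Pnpla2, up to 3 genes with the smallest adjusted p per direction and list (otherwise the 2 most counted), and the 3 genes most like each changed member. Genes named besides these (Blcap, Cidea, Elovl3, Dio2, Id1, Ero1a, Erp44, Lepr, the ErbB genes, Lpl, Angptl4, Pparg, Cebpa, Cebpb, Cav1, Cav2, Igfbp3, Mest, Sfrp5) were chosen after their values were seen. Total counts were 2017697 to 3115956 per mouse. No library was a duplicate: chi-square over degrees of freedom ran from 4.69 to 23.2 between mice of a genotype. The labels do not say more of how the mice relate, and p-values measure the spread between them.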

Additional observations from a re-analysis of the deposited data

Results flagged for a closer look

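In 3 of 80 sets of 4 mice of 1 genotype, a mouse lay far from the others by Dixon's criterion, where chance gives about 4. In WT mice Retn was low in mouse 3, at 5.4 log2 CPM against 6.53 to 6.75 in the others, a gap of 0.84 of the range. Bmp8b in WT mice rested on 1 count in mouse 2 and 0 in the others, a gap of 1. Epdr1 in WT mice likewise had 1 count in mouse 3 and 0 in the others, also a gap of 1.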

How the results depend on the processing

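The alternative that adds a log2FC of at least 1 reuses the main fit, so its direction could not change. For the 9 tested members, 173 of 186 alternative results kept direction and side of the threshold. Of the others, 6 lost the call, 1 gained it and 6 reversed. For the 28 other named genes 500 of 581 kept both, 76 lost the call, 3 gained it and 2 reversed. Lep, Metrnl and Angptl8 kept theirs in every alternative that tested them; leaving out 1 mouse gave 4.34 to 6.85 for Lep, 2.43 to 3.06 for Metrnl, −2.53 to −2.17 for Angptl8, −0.97 to −0.68 for Adipoq, −1.24 to −0.87 for Rbp4 and −0.78 to −0.59 for Nampt. Lep, Metrnl, Gdf15, Epdr1 and Smad7 passed the main filter on low counts through their counts in Ucp1Δ/Δ mice. Igfbp3, among the other adipokines that rose (2.7 ± 1.65 against 9.57 ± 3.92 CPM), also relied on them. Other list genes that are not named can have done so as well, and the list counts include such genes. The alternatives reuse the same counts and are no separate support. Requiring 10 counts in every mouse removed Lep, Metrnl and Angptl8, so 0 members were higher and 3 lower. Relative to adipocyte markers 1 member was lower, and with a log2FC of at least 1 added 2 were. Reversed values were 0.17 for Retn, 0.20 for Nrg4, 0.48 for Nnat, 0.0064 for Retsat and 0.32 for Dhrs4 relative to adipocyte markers, 0.031 for Retn without Ucp1Δ/Δ mouse 3, and 0.54 (voom) and 0.40 (without WT mouse 4) for Nnat, none of them called before. Nnat passed with a filter of 1 count in any mouse (−0.72, adjusted p = 0.0287, in a range from 0.0287 to 0.981 over its alternatives), and leaving out 1 mouse gave −1.11 to 0.40. The cause was not tested.

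Over all genes, 1872 calls (1191 higher, 681 lower) became 1195 (746 and 449) with 10 counts in every mouse, 1081 (854 and 227) with a log2FC of at least 1, and 3133 (3018 and 115) relative to adipocyte markers, a fit by limma on log2 CPM that gave 1841 (1196 and 645) per library, an alternative also chosen after seeing the data. Total counts only gave 1478 higher and 404 lower, with the median of all genes at 0.13. Without the 2 muscle-rich mice, chosen after seeing the data, there were 1095 (816 and 279). Leaving out 1 mouse gave 1345 to 2155 calls, 945 to 1304 higher and 400 to 851 lower, the fewest lower without Ucp1Δ/Δ mouse 2.

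Whether the replicate numbers pair the mice is not given by the labels. Same-numbered mice correlated at −0.196 to 0.304, and 4 such values cannot decide it. With the replicate number as a block, 1719 genes were called (1138 higher, 581 lower), and 2 members were higher and 4 lower. Pm20d1 and Plod1 lost their calls. The Lep to Adipoq ratio differed by 6.53 with the block (exact p = 0.125, the smallest possible), by 5.62 to 7.63 without 1 mouse (exact p = 0.0571, the smallest possible), by 6.37 without the 2 muscle-rich mice (exact p = 0.1) and by 6.11 with a pseudocount of 1.

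Depth limits low genes: among the members and the genes named from the lists, Bmp8b in all mice, Lep in 3 WT mice, Gdf15 and Epdr1 in all WT mice, Metrnl in WT mouse 4 and Smad7 in WT mouse 2 lay below the floor of 3 counts.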

Other observations

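Several secreted factors of the lists were too low for the test and are given as values with no call. The monocyte chemokine Ccl2 had 0.127 ± 0.253 CPM in WT and 2.61 ± 1.5 CPM in Ucp1Δ/Δ mice (SD, n = 4). Tnf, an inflammatory cytokine, and Spp1, encoding osteopontin, had 0 counts in all WT mice and means of 0.837 ± 0.367 and 1.33 ± 0.808 CPM in Ucp1Δ/Δ mice, near the floor of 3 counts per library. Fgf21, a hormone that BAT can release, had a mean of 0.127 ± 0.253 CPM in WT mice and 0 counts in all Ucp1Δ/Δ mice, and Il6 had 0 counts in all 8 mice.

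Among markers of other cells, endothelial and mural markers had summed levels from 192.3 to 248.7 and from 196.2 to 292.8 CPM in WT mice and from 248 to 281.6 and from 304.6 to 349.3 CPM in Ucp1Δ/Δ mice, and 2 of 7 tested mural markers rose. Lymphocyte and neutrophil markers reached at most 12.7 CPM in sum in any mouse.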
